A study of Mus musculus with 6 samples.

Results

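This section describes 44 mouse genes of the cell cycle in endothelial-enriched cells of ischemic muscle: 13 genes of DNA replication, 4 regulators of the passage from G1 into S phase, and 27 genes of mitosis and chromosome structure. The genes were taken by name as well-known S-phase and mitosis genes. The rule uses no measured value, but the list was drawn up with earlier results of these data known. All 44 were found among the 47729 genes of the count files through their Ensembl identifiers.

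RNA-seq read counts came from 6 libraries in 3 groups of 2, all made from muscle of mice kept on a high-fat, high-sucrose (HFHS) diet, after hind limb ischemia (HLI) surgery on day 0. The WT + GFP group was wild-type mice given an adenovirus that carries green fluorescent protein (Ad-GFP), the KO + GFP group was Leene-KO mice given the same virus, and the KO + LEENE group was Leene-KO mice given an adenovirus that carries human LEENE (Ad-LEENE). By the labels, intramuscular injection of the virus took place on days 1 and 4, muscle was harvested after 1 week, and cells were enriched with beads against CD144 (VE-cadherin, the adhesion protein of endothelial junctions). In the study's methods the second injection falls on a later day. Leene-KO mice lack, in every cell, the mouse region that corresponds to the gene of the human long noncoding RNA LEENE, by CRISPR/Cas9 deletion on the C57BL/6J background, so the loss is not limited to endothelial cells (ECs). The knockout groups also lack the other noncoding genes inside that region. The labels give neither the age nor the sex of the mice, and the study used both sexes, with the diet begun in young adults.

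Cells copy their DNA once per division. Before S phase the MCM2-7 helicase, a ring of 6 different subunits, is loaded onto origins with CDC6 and CDT1, and replication then needs the sliding clamp PCNA and a supply of deoxynucleotides. In mitosis, cyclin B with CDK1 starts the process, Aurora and Polo-like kinases and motor proteins build the spindle, and the BUB kinases delay separation until the chromosomes are attached. ECs of resting adult muscle divide rarely, and they divide more when vessels grow after ischemia, which is why these genes are commonly read as signs of proliferation.

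The libraries held 1770992 to 5602603 reads. The KO + LEENE libraries were the smallest, and mitochondrially encoded genes took 50.1% and 50.9% of reads in WT + GFP against 33.6% to 34.3% in the other groups. Levels are given as reads, and as CPM, which are reads scaled to the same total with edgeR's TMM factors. A group with no reads for a gene is compared at 3 reads over its 2 libraries, so its fold change is a bound. All intervals cover counting error of reads only. The file headers name no collapsing of copies of the same molecule, so these bounds and intervals hold for reads and not for molecules. Where leaving out 1 library left a group with no reads (Mcm6, Rrm1, Bub1b, Cenpe, Kif23 and Top2a), the fitted value given is not a bound. Cdh5, which encodes the bead target, counted 332 and 283 reads per library under WT + GFP, 322 and 196 under KO + GFP and 5 and 18 under KO + LEENE, so the marker of the enrichment was at its lowest in the LEENE-treated libraries. Pecam1, another endothelial marker, had 211 and 175, 140 and 89, and 95 and 110 reads. The 2 libraries of a group share 1 sample number of the sequencing facility in the file headers, and nothing says that they came from separate mice. P values therefore measure the spread between these libraries only, which may be technical. In bulk RNA, fewer cells of a type and less RNA per cell cannot be told apart.

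Promoter sequences are shown first because the mitotic and replication classes are known for different promoter elements. Mitotic genes are known for the cell cycle homology region (CHR, searched as TTTGAA and TTCGAA) beside CCAAT boxes, and many replication genes for E2F sites (searched as TTTGGCGC, TTTCCCGC, TTTCGCGC, TTTGCCGC, TTTCCGCC and TTCCCGCC). Both strands were searched for exact matches, and matches of different letters may overlap. RefSeq windows on GRCm38.p6, from 250 bases before to 50 after a gene's start, were found for 34 of the 44 genes. Of the 22 mitotic windows, 18 (81.8%) held a CHR, 20 (90.9%) a CCAAT box and 1 (4.55%) an E2F match. Of the 12 replication windows, 2 (16.7%) held a CHR, 9 (75.0%) a CCAAT box and 7 (58.3%) an E2F match. Over all 32851 windows the shares were 19.2%, 37.4% and 4.9%. The windows below belong to the most-read genes of each class, with motif matches in capitals. For Mcm4 and Smc4, which are also among the most-read members, no window is shown.
Mcm6 (chr1:128359656-128359955, minus strand): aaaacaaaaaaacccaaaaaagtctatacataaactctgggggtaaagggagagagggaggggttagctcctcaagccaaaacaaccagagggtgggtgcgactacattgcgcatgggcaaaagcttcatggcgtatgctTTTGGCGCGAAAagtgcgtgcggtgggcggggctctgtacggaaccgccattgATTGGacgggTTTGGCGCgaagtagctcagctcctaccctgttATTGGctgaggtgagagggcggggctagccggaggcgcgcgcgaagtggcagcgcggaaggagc
Tyms (chr5:30073576-30073875, minus strand): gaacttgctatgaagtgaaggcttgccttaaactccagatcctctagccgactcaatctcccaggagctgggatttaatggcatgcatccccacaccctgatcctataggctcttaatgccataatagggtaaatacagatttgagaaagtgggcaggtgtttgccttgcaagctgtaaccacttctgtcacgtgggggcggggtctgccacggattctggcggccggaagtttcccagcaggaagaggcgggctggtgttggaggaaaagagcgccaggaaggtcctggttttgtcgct
Ccnb2 (chr9:70421505-70421804, minus strand): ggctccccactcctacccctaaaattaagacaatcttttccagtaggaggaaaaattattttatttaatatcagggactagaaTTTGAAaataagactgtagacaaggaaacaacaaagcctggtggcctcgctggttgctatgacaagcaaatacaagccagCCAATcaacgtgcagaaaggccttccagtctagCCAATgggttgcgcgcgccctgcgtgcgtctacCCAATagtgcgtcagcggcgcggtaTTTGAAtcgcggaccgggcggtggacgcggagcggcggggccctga
Nusap1 (chr2:119618048-119618347, plus strand): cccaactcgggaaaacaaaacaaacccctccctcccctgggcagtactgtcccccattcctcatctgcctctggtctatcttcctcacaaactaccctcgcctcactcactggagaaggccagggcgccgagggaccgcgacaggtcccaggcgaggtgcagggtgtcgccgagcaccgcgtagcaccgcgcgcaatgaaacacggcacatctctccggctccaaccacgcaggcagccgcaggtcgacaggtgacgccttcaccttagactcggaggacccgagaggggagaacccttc
The Mcm6 window held 3 E2F matches and 2 CCAAT boxes, and the Ccnb2 window held 2 CHR and 3 CCAAT boxes. The Tyms and Nusap1 windows held no match to these letters.

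Reads of the 44 genes were few. There were 28 members (63.6%) with 15 or more reads over the 6 libraries, against 9274 of 21236 protein-coding genes (43.7%), and tests were run on these 28 only: 8 replication genes, 2 G1/S regulators and 18 mitotic genes. The other 16 reached no more than 6 reads per library and 13 in all, and Gins2 and Cdc20 had none. Just outside the minimum lay Mcm2, Ccne2 and Cdk2 with 13 reads each, and just inside lay Rrm2 with 15, Ccna2 with 16 and Cenpe with 21. The 16 untested genes held 95 of the 11613 reads of all members. Of the 28 tested genes, 13 (46.4%) had 3 reads or fewer over both libraries of at least 1 group, and the same held for 43.9% of all 12051 genes tested. The exons of 13 members overlap an exon of another gene. For all of these but Top2a and Stmn1 at least 1 such gene lies on the other strand, and reads counted without strand cannot be told apart there.

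**Figure D1:**
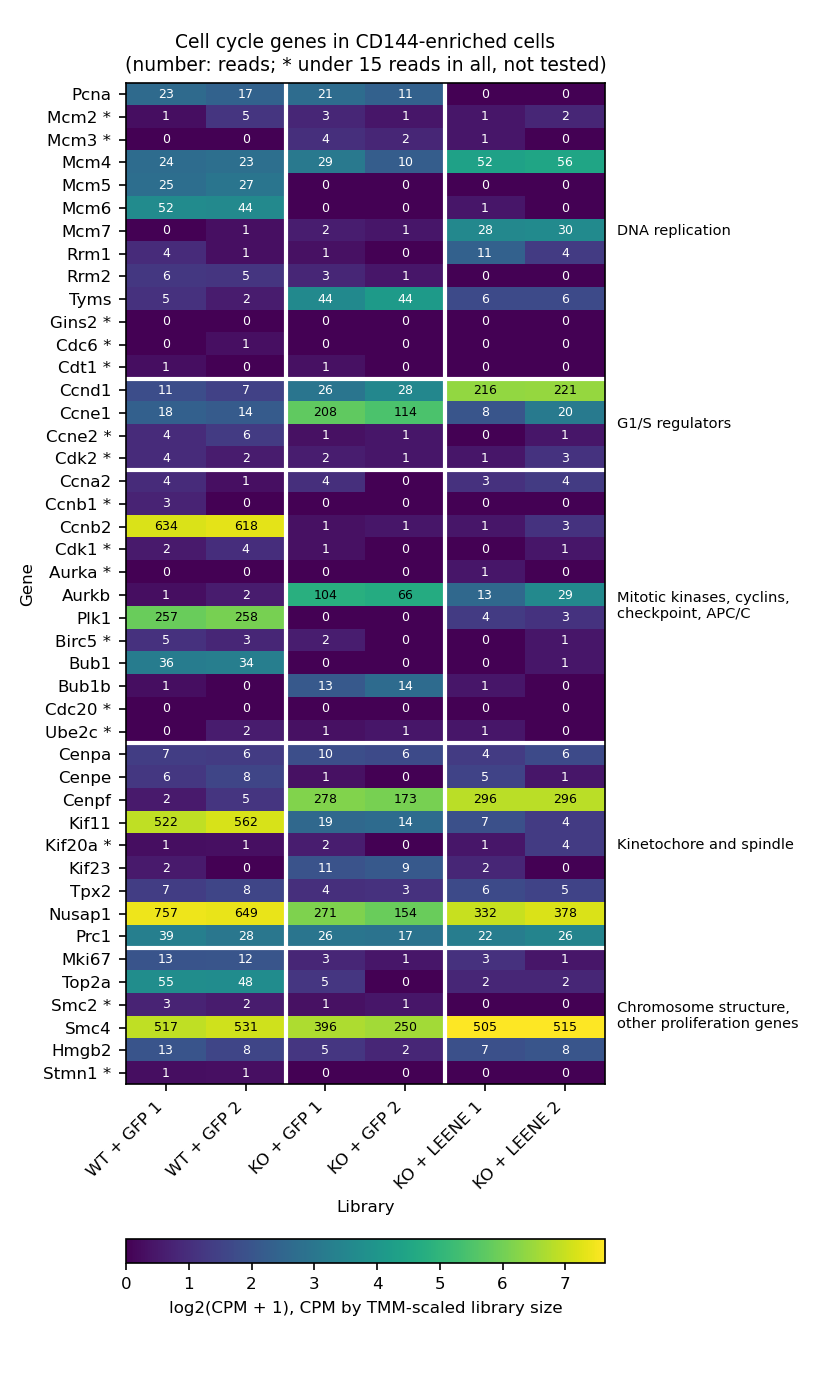
Heatmap of the 44 genes (rows, ordered by role) in the 6 libraries (columns), colored by log2(CPM + 1), with the read number printed in each cell and an asterisk on the 16 genes that were not tested. Ccnb2, Plk1 and Kif11 are high in WT + GFP only, Cenpf is high in both knockout groups, and Smc4 and Nusap1 are high in every library.

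The members did not move as a block. Loss of Leene was addressed by KO + GFP against WT + GFP, where 18 of the 28 genes passed the test (edgeR, adjusted P under 0.05), 7 higher and 11 lower. This is 64.3% of the tested members, beside 60.9% of all genes tested (29.9% higher and 31.0% lower). The median log2 fold change of the members was -0.53, and that of all genes tested was -0.09. Of the replication genes, Tyms rose and Mcm5 and Mcm6 fell. Of the mitotic genes, 4 rose and 9 fell, and both tested G1/S regulators rose.

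Supplementation was addressed by KO + LEENE against KO + GFP, where 15 of the 28 genes passed, 8 higher and 7 lower. This is 53.6%, beside 55.9% of all genes tested (25.9% higher and 30.0% lower), with median log2 fold changes of 0.82 and -0.1. Mcm4, Mcm7 and Rrm1 rose and Pcna and Tyms fell, and 4 mitotic genes rose and 4 fell. Scaling by library size alone, without TMM factors, moved the median of all genes in this contrast from -0.1 to 0.84. The members called then split into 13 higher and 5 lower, the mitotic genes into 9 and 2. Of all 12051 genes tested, 4864 were then higher and 2480 lower. Without the first KO + GFP library, 5 mitotic genes passed in place of 8.

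In KO + LEENE against WT + GFP, 18 of the 28 genes passed, 7 higher and 11 lower. This is 64.3%, beside 58.3% of all genes tested (26.4% higher and 31.8% lower), with median log2 fold changes of 0.2 and -0.21. Of the 8 tested replication genes, 3 rose and 4 fell, and of the 18 mitotic genes, 3 rose and 7 fell. By library size alone the members split into 11 higher and 9 lower, beside 4095 higher and 2936 lower of all 12051 genes tested. The median of all genes was then 0.28. The 3 contrasts share libraries and are not independent. Each share of called members lay near the share of all genes, so the counts give nothing particular to these genes.

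**Figure D2:**
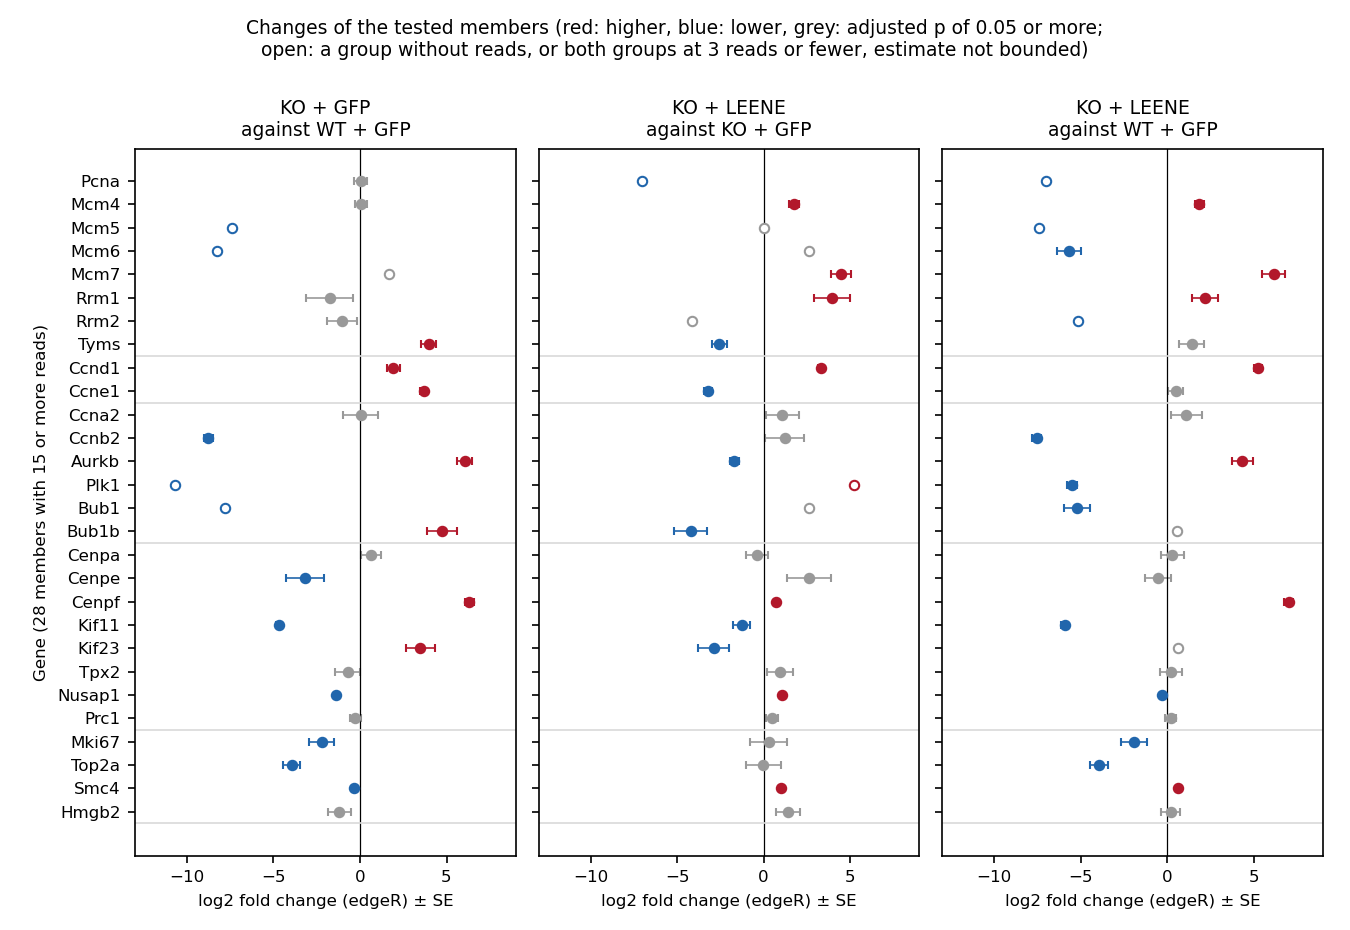
Log2 fold change (x axis, edgeR, ± SE) of the 28 tested genes (y axis, ordered by role) in the 3 contrasts, red for higher, blue for lower and grey for an adjusted P of 0.05 or more. Open symbols mark genes with no reads in a group or at most 3 in both, where the estimate is not a bound. Red and blue points lie on both sides of 0 in each contrast.

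The subunits of the MCM2-7 helicase went different ways. Mcm6 (chromosome 1, 128331590 to 128359664, GRCm38) had read numbers of 52 and 44 with WT + GFP, none with KO + GFP and 1 and 0 with KO + LEENE. Both WT libraries stood far above the other 4. Mcm6 was at least 25-fold lower than WT + GFP in KO + GFP (adjusted P = 4.67e-20, edgeR) and 60.3-fold lower in KO + LEENE (95% counting interval, 10.6 to 2410; log2 fold change -5.66, adjusted P = 1.59e-15), or -8.32 without the first and -4.75 without the second LEENE library. Mcm5 (chromosome 8, 75109528 to 75128439) followed the same order, with 25 and 27 reads for WT + GFP and none in the other 4 libraries. Against WT + GFP it was at least 13.5-fold lower with KO + GFP (adjusted P = 2.24e-11) and at least 10.9-fold lower with KO + LEENE (adjusted P = 8.27e-10).

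Mcm7 (chromosome 5, 138164583 to 138172422) had the opposite order, with 0 and 1 reads for WT + GFP, 2 and 1 for KO + GFP, then 28 and 30 for KO + LEENE. Only the LEENE-treated libraries were high. Mcm7 rose by 4.48 ± 0.594 (SE) on the log2 scale in KO + LEENE against KO + GFP (adjusted P = 1.94e-13), while KO + GFP and WT + GFP were both at 3 reads or fewer and give no fold. Its exons overlap those of Cops6 and Ap4m1 on the other strand, which reads counted without strand cannot separate. Mcm4 (chromosome 16, 15623897 to 15637400) gave 24 and 23 reads for WT + GFP, 29 and 10 for KO + GFP, then 52 and 56 for KO + LEENE. After scaling, the WT values lay between the KO + GFP values (log2 fold change 0.08 ± 0.349, adjusted P = 0.861), and both LEENE values lay above them. Mcm4 was 3.44-fold higher than KO + GFP in KO + LEENE (log2 fold change 1.78 ± 0.286, adjusted P = 1.7e-09), and the value was 2.38 without the first KO + GFP library. Mcm2 had 1 and 5, 3 and 1, and 1 and 2 reads, with the groups named as before, and Mcm3 had none for WT + GFP, 4 and 2 for KO + GFP, then 1 and 0 for KO + LEENE. Neither was tested. In no library did all 6 subunits pass 3 reads.

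The loading factors and the GINS subunit were at the limit of detection. Cdc6 had 1 read in all, in WT + GFP, and Cdt1 had 1 read in WT + GFP and 1 in KO + GFP. Gins2, a subunit of the active helicase, had none, which at 3 reads allows up to 0.684 to 1.15 CPM depending on the library. Their differences were not detectable at this depth.

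Pcna (chromosome 2, 132249162 to 132253314), the sliding clamp, counted 23 and 17 reads per library under WT + GFP, 21 and 11 under KO + GFP and none under KO + LEENE. The WT and KO + GFP values overlapped (log2 fold change 0.03 ± 0.389, adjusted P = 0.955). Pcna was at least 8.58-fold lower than KO + GFP in KO + LEENE (adjusted P = 8.58e-08, edgeR) and at least 8.37-fold lower than in WT + GFP (adjusted P = 5.55e-08). The clamp was thus not detected in the same libraries where Mcm4 and Mcm7 were highest.

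Enzymes of deoxynucleotide supply also differed among themselves. Tyms (chromosome 5, 30058202 to 30073617), the thymidylate synthase, had read numbers of 5 and 2 with WT + GFP, 44 and 44 with KO + GFP and 6 and 6 with KO + LEENE. The KO + GFP libraries stood above the other 4. Tyms was 16.1-fold higher than WT + GFP in KO + GFP (log2 fold change 3.96 ± 0.442, adjusted P = 1.44e-18) and 5.9-fold lower than KO + GFP in KO + LEENE (log2 fold change -2.55 ± 0.409, adjusted P = 1.62e-09). KO + LEENE against WT + GFP gave 1.41 ± 0.718 (adjusted P = 0.0811), and 2.01 by library size alone (adjusted P = 0.0103). Without the first WT library the rise of Tyms in KO + GFP was 4.59.

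Rrm1, the large subunit of ribonucleotide reductase, gave 4 and 1 reads for WT + GFP, 1 and 0 for KO + GFP, then 11 and 4 for KO + LEENE. It rose in KO + LEENE against KO + GFP (18.6-fold, 95% counting interval 2.87 to 785; adjusted P = 0.000368) and against WT + GFP (log2 fold change 2.19 ± 0.743, adjusted P = 0.00656). The last call was lost without the second WT library (1.59, adjusted P = 0.13), by DESeq2, another count model (2.31, adjusted P = 0.156), and after thinning to the smallest library (1.81, adjusted P = 0.102), and the value was 3.29 without the first WT and 2.78 without the second LEENE library. Against KO + GFP (3.93 on the log2 scale) Rrm1 gave 6.24 without the first and 3.28 without the second KO + GFP library, and 4.52 without the second LEENE library. Rrm2, the small subunit of the same enzyme, had 6 and 5, 3 and 1, and 0 and 0 reads. It was at least 2.3-fold lower than WT + GFP in KO + LEENE (adjusted P = 0.00693), but the adjusted P was 0.0587 without the first and 0.0567 without the second LEENE library, and 0.0659 by DESeq2. By their reads, the subunits of this enzyme had opposite orders in KO + LEENE and WT + GFP.

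**Figure D3:**
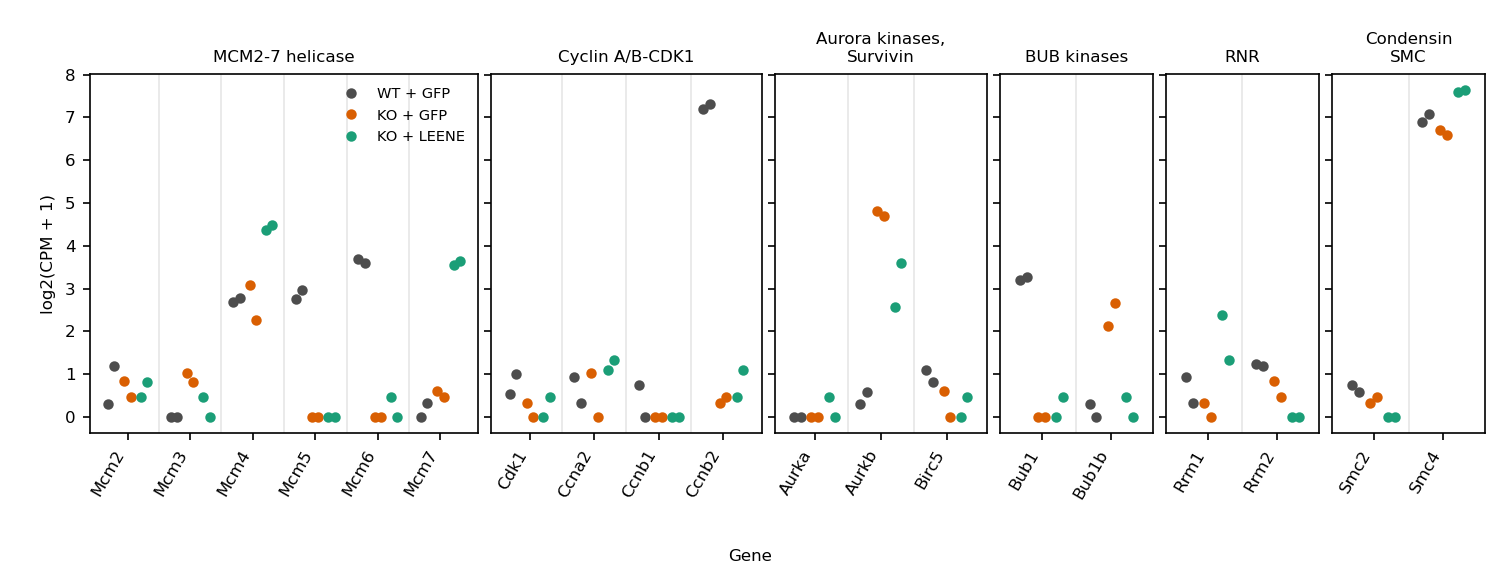
Log2(CPM + 1) (y axis) of genes that encode partners in a complex or related kinases (x axis), 1 point per library and 3 colors for the groups (RNR, ribonucleotide reductase). Partners differ in which group is highest: Mcm5 and Mcm6 in WT + GFP, Mcm4 and Mcm7 in KO + LEENE, Bub1 in WT + GFP and Bub1b in KO + GFP.

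Both tested G1/S regulators rose in KO + GFP against WT + GFP. Ccnd1 (chromosome 7, 144929931 to 144939925), cyclin D1, which links growth signals to the start of the cycle, counted 11 and 7 reads per library under WT + GFP, 26 and 28 under KO + GFP and 216 and 221 under KO + LEENE. The 3 groups did not overlap. The log2 fold change was 1.93 ± 0.387 for KO + GFP over WT + GFP (adjusted P = 1.75e-06), 3.32 ± 0.185 in KO + LEENE against KO + GFP (adjusted P = 1.01e-70) and 5.25 ± 0.227 in KO + LEENE against WT + GFP (adjusted P = 2.25e-116). Its exons overlap LTO1 on the other strand, which had 105 and 103, 42 and 32, and 137 and 141 reads. The reads of LTO1 were thus fewest in KO + GFP, unlike those of Ccnd1, but both genes had most reads in the LEENE-treated libraries, and reads of the pair cannot be told apart.

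Ccne1 (chromosome 7, 38097984 to 38107534), cyclin E1, which drives entry into S phase with CDK2, had read numbers of 18 and 14 with WT + GFP, 208 and 114 with KO + GFP and 8 and 20 with KO + LEENE. It was high only in the KO + GFP libraries. Ccne1 was 12.9-fold higher than WT + GFP in KO + GFP (log2 fold change 3.67 ± 0.226, adjusted P = 1.84e-58) and 9.25-fold lower than KO + GFP in KO + LEENE (log2 fold change -3.2 ± 0.242, adjusted P = 5.89e-39; -3.96 without the second LEENE library). Between KO + LEENE and WT + GFP the value was 0.48 ± 0.408 (adjusted P = 0.328), and it was 1.03 without the first LEENE library (adjusted P = 0.0464), -0.281 without the second (adjusted P = 0.733) and 1.08 by library size alone (adjusted P = 0.0201). Ccne2, cyclin E2, had 4 and 6, 1 and 1, and 0 and 1 reads, and Cdk2, the kinase partner, had 4 and 2, 2 and 1, and 1 and 3 reads. Neither was tested. Thus the 2 cyclins of G1/S that were tested were highest in different knockout groups.

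Among the drivers of mitotic entry, Ccnb2 was the most read. Ccnb2 (chromosome 9, 70407689 to 70421554), cyclin B2, gave 634 and 618 reads for WT + GFP, 1 and 1 for KO + GFP, then 1 and 3 for KO + LEENE. Both WT libraries stood apart from all knockout libraries. It was 488-fold lower in KO + GFP (95% counting interval 135 to 4040; log2 fold change -8.77 ± 0.265, adjusted P = 6.61e-236) and 197-fold lower in KO + LEENE (interval 76.6 to 722; log2 fold change -7.55 ± 0.248, adjusted P = 2.23e-199) than in WT + GFP. The latter was -6.95 without the first and -8.45 without the second LEENE library. The other parts of the same kinase were nearly unread even where Ccnb2 was high: Cdk1, its catalytic partner, had 2 and 4 reads under WT + GFP and at most 1 in any other library, and Ccnb1, cyclin B1, had 3 and 0 reads there and none elsewhere. Ccna2, cyclin A2, had 4 and 1, 4 and 0, and 3 and 4 reads and was not called in any contrast (adjusted P 0.297 to 0.988), except by library size alone in KO + LEENE against KO + GFP (2.1, adjusted P = 0.049).

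Plk1 (chromosome 7, 122159439 to 122169873), Polo-like kinase 1, counted 257 and 258 reads per library under WT + GFP, none under KO + GFP and 4 and 3 under KO + LEENE. It had the same order as Ccnb2. Plk1 was at least 134-fold lower with KO + GFP (adjusted P = 1.07e-99) and 46.2-fold lower in KO + LEENE (log2 fold change -5.49 ± 0.298, adjusted P = 1.79e-74) than in WT + GFP. It was at least 2.9-fold higher than KO + GFP in KO + LEENE (adjusted P = 0.00372), a call that rests on 7 reads and was lost without the first KO + GFP library (adjusted P = 0.0593).

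Aurkb differed from this order. Aurkb (chromosome 11, 69045647 to 69051664), the Aurora kinase of the chromosomal passenger complex, had read numbers of 1 and 2 with WT + GFP, 104 and 66 with KO + GFP and 13 and 29 with KO + LEENE. The groups did not overlap, with KO + GFP highest. Aurkb rose by 6.04 ± 0.432 on the log2 scale from WT + GFP to KO + GFP (adjusted P = 1.74e-43) and was 3.26-fold lower than KO + GFP in KO + LEENE (log2 fold change -1.7 ± 0.259, adjusted P = 2e-10). The latter value was -2.35 without the second KO + LEENE library and -0.642 by library size alone, and was called in both cases. Birc5 (Survivin), a subunit of the same complex, had 5 and 3, 2 and 0, and 0 and 1 reads, and Aurka, the Aurora kinase of the spindle poles, had 1 read in all, in KO + LEENE.

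The checkpoint kinases divided between WT + GFP and KO + GFP. Bub1 (chromosome 2, 127801122 to 127831865) gave 36 and 34 reads for WT + GFP, none for KO + GFP, then 0 and 1 for KO + LEENE. Bub1b (chromosome 2, 118598211 to 118641591), which encodes BUBR1, had 1 and 0, 13 and 14, and 1 and 0 reads. One kinase was high where the other was near 0. Bub1 was at least 18.2-fold lower than WT + GFP in KO + GFP (adjusted P = 5.84e-15), and Bub1b was 34.6-fold higher (95% counting interval 5.7 to 1420; adjusted P = 2.24e-07) and then 21.7-fold lower than KO + GFP in KO + LEENE (interval 3.58 to 890; adjusted P = 2.67e-05). On the log2 scale the rise of Bub1b (4.74) was 6.7 without the first and 3.95 without the second WT library, and the fall (-4.21) was -6.88 without the first and -3.3 without the second LEENE library. Cdc20, the activator of the anaphase-promoting complex, had no reads, and Ube2c, its ubiquitin-conjugating enzyme, had 0 and 2, 1 and 1, and 1 and 0. The promoter windows of Bub1 and Bub1b held 1 and 2 CHR matches and 2 and 1 CCAAT boxes.

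Among genes of the kinetochore and spindle, Cenpf and Kif11 had opposite orders. Cenpf (chromosome 1, 189640606 to 189688086), a large protein of the outer kinetochore, counted 2 and 5 reads per library under WT + GFP, 278 and 173 under KO + GFP and 296 and 296 under KO + LEENE. All 4 knockout libraries were high. Cenpf was 82.6-fold higher than WT + GFP in KO + GFP (log2 fold change 6.3 ± 0.26, adjusted P = 4.32e-128; 5.67 without the first and 7.1 without the second WT library) and 1.63-fold higher than KO + GFP in KO + LEENE (log2 fold change 0.71 ± 0.105, adjusted P = 6.65e-11). Its promoter window held 1 CHR match and 2 CCAAT boxes.

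Kif11 (chromosome 19, 37376403 to 37421859), the motor that separates the spindle poles, had read numbers of 522 and 562 with WT + GFP, 19 and 14 with KO + GFP and 7 and 4 with KO + LEENE. It was high in WT + GFP only. Kif11 was 25.6-fold lower in KO + GFP (log2 fold change -4.67 ± 0.169, adjusted P = 1.09e-165) and 61.9-fold lower in KO + LEENE (log2 fold change -5.93 ± 0.216, adjusted P = 1.5e-162) than in WT + GFP. The step from KO + GFP to KO + LEENE (-1.26 ± 0.481, adjusted P = 0.0175) was lost by library size alone (-0.21, adjusted P = 0.746) and without the first KO + GFP (adjusted P = 0.0782), the second KO + GFP (0.0933) or the second KO + LEENE library (0.192). By DESeq2 and after thinning it also missed the threshold (adjusted P = 0.0505 and 0.0827). Kif23, a motor of the central spindle in cytokinesis, had 2 and 0, 11 and 9, and 2 and 0 reads, and rose in KO + GFP against WT + GFP by 3.49 ± 0.841 (adjusted P = 7.84e-05), or by 6.26 without the first and 2.63 without the second WT library. It was lower than KO + GFP in KO + LEENE (-2.89 ± 0.887, adjusted P = 0.00245), but not past the threshold without the second KO + LEENE library (adjusted P = 0.0858), by library size alone (0.0799) or by DESeq2 (0.108). Kif20a, another motor of cytokinesis, had at most 4 reads in any library.

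Nusap1 (chromosome 2, 119618298 to 119651244), which binds spindle microtubules, gave 757 and 649 reads for WT + GFP, 271 and 154 for KO + GFP, then 332 and 378 for KO + LEENE. It was read in every library, with KO + GFP lowest. Nusap1 was 2.58-fold lower than WT + GFP in KO + GFP (log2 fold change -1.37 ± 0.089, adjusted P = 1.42e-52) and 2.08-fold higher than KO + GFP in KO + LEENE (log2 fold change 1.06 ± 0.0975, adjusted P = 1.04e-26). The difference of KO + LEENE from WT + GFP was -0.31 ± 0.0814 (adjusted P = 0.000293), was -0.179 without the first KO + LEENE library (adjusted P = 0.129) and -0.12 after thinning (adjusted P = 0.303), and turned to 0.297 by library size alone (adjusted P = 0.000263).

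Prc1, which bundles microtubules of the central spindle, had 39 and 28, 26 and 17, and 22 and 26 reads, with log2 fold changes of -0.28 ± 0.317, 0.47 ± 0.34 and 0.19 ± 0.31 in the 3 contrasts, none of them called. Its exons overlap Rccd1. Tpx2, which activates Aurora A on the spindle, had 7 and 8, 4 and 3, and 6 and 5 reads, and Cenpa, the histone variant of centromeres, had 7 and 6, 10 and 6, and 4 and 6. With TMM factors these 3 genes passed the test in no contrast. Without these factors Prc1 passed in all 3 (-0.726, 1.52 and 0.798, adjusted P = 0.0347, 2.76e-05 and 0.0215) and Tpx2 in KO + LEENE against KO + GFP (1.98, adjusted P = 0.015). Cenpe, a kinetochore motor, had 6 and 8, 1 and 0, and 5 and 1 reads and was lower than WT + GFP in KO + GFP (-3.17 ± 1.09, adjusted P = 0.00705), a call lost without the second KO + GFP library (-2.51, adjusted P = 0.0852) and by DESeq2 (-3.5, adjusted P = 0.102), while the value was -5.46 without the first KO + GFP library (adjusted P = 0.0438). In KO + LEENE against KO + GFP its value was 2.63 ± 1.29 (adjusted P = 0.0713), and 3.39 without the second KO + LEENE library (adjusted P = 0.0226) and 3.59 by library size alone (adjusted P = 0.00785).

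Of the genes of chromosome structure, Top2a (chromosome 11, 98992943 to 99024189), DNA topoisomerase II alpha, counted 55 and 48 reads per library under WT + GFP, 5 and 0 under KO + GFP and 2 and 2 under KO + LEENE. The WT libraries lay above all knockout libraries. Top2a was 16.1-fold lower in KO + GFP (95% counting interval 6.67 to 50.5; log2 fold change -3.94 ± 0.481, adjusted P = 1e-15) and 16.2-fold lower in KO + LEENE (interval 6.13 to 60.5; log2 fold change -3.95 ± 0.52, adjusted P = 1.28e-13) than in WT + GFP. The first of these was -8.31 without the first KO + GFP library, which leaves 0 reads in that group and gives no bound, and -3.18 without the second. Mki67, which encodes the proliferation antigen Ki-67, had 13 and 12, 3 and 1, and 3 and 1 reads. It, like Top2a, was lower in KO + GFP (-2.22 ± 0.723, adjusted P = 0.00413) and in KO + LEENE (-1.92 ± 0.738, adjusted P = 0.0175) than in WT + GFP, and the second of these was -2.82 without the first KO + LEENE library (adjusted P = 0.0255) and -1.32 without the second (adjusted P = 0.195). Neither Mki67 call passed by DESeq2 (adjusted P = 0.0674 and 0.138) or after thinning (0.0895 and 0.0573), and the second did not pass by library size alone (-1.34, adjusted P = 0.125). KO + LEENE against KO + GFP gave -0.01 ± 0.995 for Top2a and 0.3 ± 1.07 for Mki67 (adjusted P = 1.0 and 0.854).

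Smc4 (chromosome 3, 69004738 to 69034623), a core subunit of condensin, had read numbers of 517 and 531 with WT + GFP, 396 and 250 with KO + GFP and 505 and 515 with KO + LEENE. After scaling the groups did not overlap, and KO + LEENE was highest with 195 CPM. The log2 fold change was -0.35 ± 0.0915 for KO + GFP over WT + GFP (adjusted P = 0.000338) and 0.98 ± 0.0915 in KO + LEENE against KO + GFP (adjusted P = 8.99e-26). Smc2, its partner in every condensin complex, had 3 and 2, 1 and 1, and 0 and 0 reads. Hmgb2, a DNA-bending protein of dividing cells, had 13 and 8, 5 and 2, and 7 and 8 reads and was not called in any contrast (-1.2 ± 0.653, adjusted P = 0.102, in KO + GFP against WT + GFP). By library size alone Hmgb2 was called in that contrast (-1.63, adjusted P = 0.0164) and in KO + LEENE against KO + GFP (2.42, adjusted P = 0.000793). Stmn1, which destabilizes microtubules, had 1 read in each WT library only.

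Summed over each class, levels followed the few leading genes. The 27 mitotic genes summed to 683 CPM ± 33.9 (SD, n = 2) under WT + GFP, 285 ± 21.4 under KO + GFP and 479 ± 21.2 under KO + LEENE. Each library's 3 most-read mitotic genes took 65.5% to 93.2% of these reads. By library size alone the mitotic sum of KO + LEENE (703 CPM) lay above that of WT + GFP (657 CPM). The 13 replication genes summed to 32.0 CPM ± 0.182, 27.2 ± 1.03 and 37.9 ± 0.405, with 71.6% to 93.9% of reads in 3 genes. Scaled by library size alone, these sums were 30.8, 19.3 and 55.6 CPM. By library size without mitochondrial genes, also with no TMM factors, they were 62.2, 29.4 and 83.8. How close they lie thus depends on the scaling. The leading gene changed between groups: Mcm6 was the most-read replication gene in both WT + GFP libraries, Tyms in both KO + GFP libraries and Mcm4 in both KO + LEENE libraries.

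**Figure D4:**
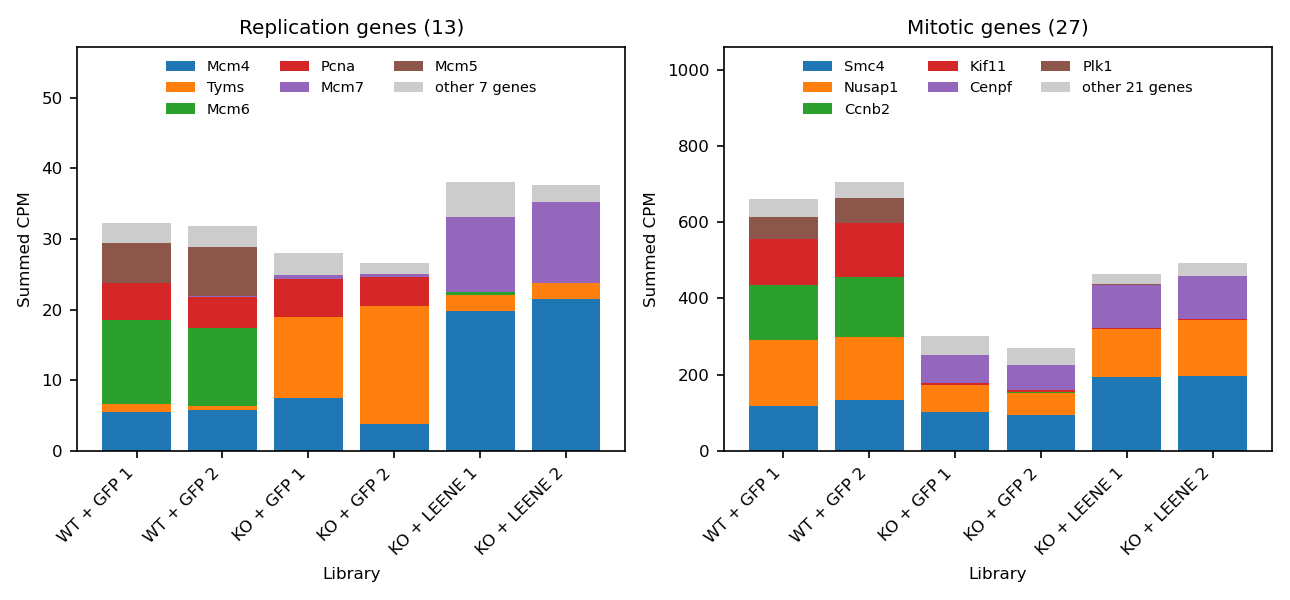
Stacked bars of CPM (y axis, from 0) of the 13 replication genes and the 27 mitotic genes in each library (x axis), with the 6 most-read genes of each class colored and the rest in grey. With TMM factors, replication sums lie between 26.5 and 38.1 CPM in all libraries, but the colors change between groups, and Ccnb2, Kif11 and Plk1 fill much of the WT + GFP mitotic bars only.

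Counted by the group with the highest mean CPM, 11 of the 28 tested genes (39.3%) had their peak in WT + GFP, 7 (25.0%) had it in KO + GFP and 10 (35.7%) had it in KO + LEENE. Over all genes tested the shares were 36.1%, 33.8% and 30.1%. For the 18 tested mitotic genes the numbers were 8, 4 and 6, and for the 8 tested replication genes 3, 2 and 3.

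Other genes of the same processes were read from 4 further lists. Of 51 other replication genes, 21 were tested, with 4 higher and 6 lower in KO + GFP against WT + GFP, 7 and 5 in KO + LEENE against KO + GFP, and 9 and 8 in KO + LEENE against WT + GFP. Scaled by library size alone, these splits were 4 and 8, 10 and 4, and 9 and 6. The shares of all genes called, for this and the next 3 lists, were 60.9%, 55.9% and 58.3%. Rfc3, a subunit of the clamp loader, gave 1 and 3 reads for WT + GFP, 966 and 665 for KO + GFP, then 3 and 1 for KO + LEENE, while its partner Rfc4 had none. Dna2, a nuclease that processes Okazaki fragments, had 2 and 4, 7 and 5, and 414 and 399, and Hells, a chromatin remodeler, had 16 and 12, 454 and 272, and 2 and 3. These 3 genes were named for having most reads over the same 6 libraries, a choice that favors genes high in 1 group. Each was high in 1 of the groups and low in the other 2, which describes these genes and not the list.

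Of 54 other mitotic genes, 32 were tested, with 13 higher and 5 lower in KO + GFP against WT + GFP, 5 and 13 in KO + LEENE against KO + GFP, and 7 and 10 in KO + LEENE against WT + GFP. Library size alone made the first 2 splits more even, with 10 and 8 and then 11 and 11, and gave 7 and 9 for the last. Kif20b, a motor of cytokinesis, had 77 and 72, 1392 and 819, and 3 and 5 reads. Spag5, which binds the spindle, had 16 and 20, 462 and 292, and 8 and 6, and Gtse1, a microtubule-binding protein of G2 and S phase, had 21 and 18, 446 and 296, and 315 and 324. The log2 fold change in KO + GFP against WT + GFP was 4.24 ± 0.0974, 4.73 ± 0.173 and 4.6 ± 0.161, in that order. In the same contrast the mitotic members Cenpf, Aurkb, Bub1b and Kif23 rose and Ccnb2, Plk1 and Kif11 were among the 9 that fell.

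Of 18 other drivers of the cycle, 12 were tested, with 3 higher and 4 lower, 4 and 5, and 2 and 4 in the same 3 contrasts. Without TMM factors they split into 1 and 6, 7 and 3, and 6 and 4. Skp2, which targets the inhibitor p27 for degradation, counted 6 and 5 reads per library under WT + GFP, 1 and 1 under KO + GFP and 941 and 1005 under KO + LEENE, a log2 fold change of 10.07 ± 0.204 in KO + LEENE against KO + GFP. Ccnd3, cyclin D3, had 251 and 240, 324 and 221, and 175 and 184 reads, and Lin9, a subunit of the complex that binds CHR elements, had 181 and 141, 99 and 51, and 108 and 102. Their log2 fold changes in KO + GFP against WT + GFP were 0.51 ± 0.103 and -0.75 ± 0.157 (adjusted P = 2.32e-06 and 5.85e-06), and that of Skp2 was -1.98 ± 0.853 (adjusted P = 0.0464), from 11 and 2 reads. Of 25 inhibitors, 16 were tested, with 6 higher and 5 lower, 5 and 7, and 3 and 5, and by library size alone 5 and 5, 6 and 3, and 3 and 2. Btg1, an antiproliferative factor, had 14228 and 13056, 42 and 30, and 14 and 19 reads, and was 296-fold lower than WT + GFP in KO + GFP (95% counting interval 235 to 378). The repressors E2f7 and E2f4 were highest in KO + GFP, with 13 and 10, 452 and 279, and 10 and 8 reads for E2f7 and 19 and 22, 329 and 232, and 11 and 16 for E2f4.

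Markers of the cell types that the enriched fraction could hold also differed between groups, and their part in the values above was not tested. The 7 fibroblast markers summed to 63.9 to 72.2 CPM under WT + GFP, 21800 to 23100 under KO + GFP and 55.3 to 56.7 under KO + LEENE, with 4 of 5 tested genes up in KO + GFP against WT + GFP. The 12 macrophage markers summed to 36.0 to 49.9, 1110 to 1220 and 10.4 to 12.2 CPM, with 4 of 7 tested genes up and 2 down in the same contrast. The 14 endothelial markers summed to 525 to 557, 3950 to 3960 and 231 to 241 CPM, with 4 of 12 tested genes higher and 4 lower in that contrast. Within the endothelial list, Emcn had read numbers of 14 and 8 with WT + GFP, 12245 and 8648 with KO + GFP and 8 and 7 with KO + LEENE, while Kdr, the VEGF receptor 2, had 808 and 708, 13 and 9, and 47 and 41. Ccne1, Tyms, Aurkb and Bub1b had their highest level in KO + GFP, as the fibroblast, macrophage and endothelial sums did. In KO + GFP the endothelial sum was mostly Emcn and the fibroblast sum mostly Dcn. Ccnb2, Plk1, Bub1 and Kif11 were highest in WT + GFP, as were 3 further sums. Of these, the erythroid and B cell sums were carried mainly by 1 gene in WT + GFP. The 6 erythroid markers summed to 2660 to 2780, 1750 to 1780 and 595 to 614 CPM, mostly of Hba-a1, with 2 of 5 tested genes lower and none higher in KO + GFP against WT + GFP, and Hbb-bt was not called (0.03, adjusted P = 0.912). The 4 B cell markers summed to 4.79 to 4.81, 0.259 to 0.758 and 0.767 to 1.53 CPM, and the 1 tested gene, Ms4a1, was lower in that contrast with 19 and 18, 0 and 0, and 3 and 1 reads. The 5 neutrophil markers summed to 2.79 to 2.97, 1.52 to 1.81 and 0.0 to 0.381 CPM, with Ly6g at 0 throughout, and the 1 tested gene, S100a9, was not called in that contrast (-0.73, adjusted P = 0.415).

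The 8 mural markers summed to 4.31 to 4.56 CPM under WT + GFP, 6.74 to 6.82 under KO + GFP and 26.7 to 34.5 under KO + LEENE, the group where Ccnd1, Mcm4 and Mcm7 were also highest. For KO + LEENE the mural sum was mostly Rgs5, which had 51 and 69 reads there. Rgs5 counted 2 and 4 under WT + GFP, where it was not most of the sum, and 21 and 5 under KO + GFP. Both tested genes of the list, Rgs5 and Myh11, were higher for KO + LEENE than for either other group. Acta2 had 6 and 2, 0 and 0, and 3 and 2 reads and was not tested. The 8 muscle fiber markers summed to 4.05 to 7.3, 26.1 to 28.5 and 19.2 to 22.1 CPM, with 1 of 3 tested genes higher and 1 lower in each contrast. The 5 myoblast markers summed to 1.37 to 2.03, 4.93 to 7.25 and 5.34 to 5.37 CPM, with 1 of 2 tested genes higher in each contrast and none lower. The 6 T and NK cell markers lay between 14.9 and 19.4 CPM in every library, with Cd3d at 0 throughout and the 1 tested gene, Cd4, not called in any contrast.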

How the data were processed

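Bulk RNA-seq of CD144-enriched cells was analysed in 6 libraries, 2 per group, grouped by the sample titles. Per the labels, libraries were made with a 3′ single-cell kit (chemistry v3.1) without the droplet step. Per the file headers, the deposited values are raw read counts, made by the authors with featureCounts 2.0.0 over exons per gene of Ensembl release 84 (GRCm38), unstranded, from uniquely aligned reads, with no collapsing of molecular identifiers named. The submitters' processing notes name bcl2fastq 2.18, STAR 2.5.4b and mm10, and the study's methods name another build (mm9), TPM and DESeq2, so the build in the headers was used. Identifiers were matched to symbols with GENCODE (43465 of 47729 matched). Lin54, on the list of other drivers, was not matched and is left out.

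Counts were tested with edgeR 4.0.16 (quasi-likelihood, TMM, 1 mean per group over all 6 libraries) in R 4.3.3, for the 12051 genes with 15 or more reads in all. P values were adjusted by Benjamini-Hochberg over these genes in each contrast and called at 0.05. The SE is the log2 fold change divided by the square root of F, an approximation. Intervals are exact 95% conditional intervals of pooled counts. Depth limits precision: 3 reads correspond to 0.684 to 1.15 CPM. The fits were tested on simulated counts in which few genes changed, in KO + GFP only. Many genes differed in the data, so the simulation does not bear on the choice of scaling. The genes described and all lists were chosen with earlier results of these data known. Named are all 44 members, the 3 most-read genes of each further pathway list, genes of the marker lists, and genes that overlap a member. Promoters of the most-read members are shown. Alternatives were DESeq2 1.42.0, other scaling, other filters, thinning to the smallest library, other samples in the fit, a replicate block, mitochondrial genes left out, and each library left out. Columns of other samples numbered 0.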

Additional observations from a re-analysis of the deposited data

How the results depend on the processing

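Over the alternatives, 1041 of 1118 single-gene values kept their direction and their side of the threshold, 26 lost and 12 gained a call, and 39 changed sign. Of these sign changes, only Nusap1 in KO + LEENE against WT + GFP was called on both sides (0.297 by library size alone). Of 180 counts and sums, 155 stayed within 1.5 times the main count or 1 SD. Causes were not tested except where the construction shows them.

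A minimum of 10 reads in every library, which tests 2083 genes and keeps 4 members, left 2, 3 and 3 members called in the 3 contrasts. Of the 2083 genes, 1536, 1505 and 1552 were called. Among the members, 2 mitotic genes were called in each contrast and 0, 1 and 1 replication genes. Mcm4 is the only replication gene tested there, and its unadjusted P in KO + GFP against WT + GFP was 0.809 in the edgeR fit of all genes. In KO + LEENE against KO + GFP, thinning to the smallest total left 5 mitotic genes called, and leaving out each library gave 5 to 8, with 5 without the first KO + GFP library. In KO + LEENE against WT + GFP, library size alone called 10 of the other drivers in place of 6, and 5 inhibitors in place of 8, as did DESeq2 with 5. DESeq2 called 16, 13 and 15 members in the 3 contrasts. Of all 12051 genes tested it called 5733, 5444 and 5430, fewer than the 7339, 6739 and 7022 called by edgeR.

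By library size alone the summed CPM was 30.8, 19.3 and 55.6 for replication genes in WT + GFP, KO + GFP and KO + LEENE, and 202 and 703 for mitotic genes in the last 2 groups. By library size without mitochondrial genes, which lowers the total by construction, the sums were 62.2, 29.4 and 83.8, and 1330, 307 and 1060. These sums also use no TMM factors, so they compare with the sums by library size alone. The single-gene fits without mitochondrial genes kept TMM factors, and all 78 values kept their direction and their side of the threshold. Library size alone shifted the all-gene median of log2 fold changes from -0.09 to -0.53, from -0.1 to 0.84 and from -0.21 to 0.28, and the share of calls that were lower from 50.9% to 59.9%, from 53.7% to 33.8% and from 54.6% to 41.8%.

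The other sign changes were in genes that were not called. In KO + GFP against WT + GFP, library size alone gave -0.412 for Pcna, -0.361 for Mcm4 and -0.389 for Ccna2, no filter gave -0.0133 for Pcna and -0.0148 for Ccna2, DESeq2 gave -0.00349 and -0.109, and thinning gave -0.784 for Pcna, -0.463 for Mcm4, -0.0215 for Cenpa and 0.0446 for Prc1. In KO + LEENE against KO + GFP, Top2a was 0.0294 with DESeq2 size factors, 1.01 by library size alone, 0.0301 with no filter, 0.096 by DESeq2, 0.0453 with 4 samples and 0.162 after thinning, and Cenpa was 0.685 by library size alone. In KO + LEENE against WT + GFP, Cenpe was 0.0576 by library size alone, and thinning gave -0.106 for Cenpa and -0.0817 for Hmgb2. Leaving out each library gave -0.13 to 0.215 for Pcna, -0.499 to 0.446 for Mcm4 and -0.577 to 0.788 for Ccna2 in the KO contrast, -0.604 to 0.897 for Mki67 and -0.758 to 4.38 for Top2a with LEENE against KO + GFP, and -0.281 to 1.03 for Ccne1, -2.0 to 0.225 for Cenpe and -0.0742 to 0.472 for Hmgb2 in KO + LEENE against WT + GFP.

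The replicate numbers of the titles did not pair the libraries (correlations of deviations 0.0211, 0.00684 and 0.0151). With the replicate number as a block, 18, 15 and 18 members were called, beside 7074, 6484 and 6721 of all 12051 genes tested. Only Ccna2 (-0.0346, KO + GFP against WT + GFP) and Top2a (0.0142, KO + LEENE against KO + GFP), neither called, changed sign. Depth limits the calls: 16 of 44 members had too few reads to test.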
